A study of Mus musculus with 11 samples.

Results

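The tripartite motif (Trim) genes were examined in newborn mouse liver haematopoietic stem cells that differed in forward scatter. A gene was included where its symbol was TRIM followed by a number, with or without a letter suffix, and the transcript with the highest mean over the 7 scatter-gated libraries stood for the gene. This gave 65 Trim genes, with 101 transcripts, among 24064 genes in the gated tables. 65 Trim genes were also found among 23420 genes in the tables of the ungated libraries. Of the Trim genes in the gated data 43 had 1 transcript and 22 had several.

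Haematopoietic stem cells (HSCs) were sorted from wild-type C57BL/6 livers at postnatal day 0 by a surface phenotype that was lineage-negative, Sca1-positive, cKit-positive, CD150-positive and CD48-negative. Between 100 and 200 cells went into each Smart-seq2 library. 4 libraries came from FSC-A High HSCs, 3 from FSC-A Low HSCs, and 4 from HSCs named only WT. FSC-A is the area of the forward scatter pulse, commonly read as cell size. Genotype, strain, age and surface phenotype were thus the same in all groups, and the named difference between FSC-A High and FSC-A Low was the scatter gate, whose limits the labels do not give. Nothing in the labels ties the libraries of a group to different animals. The p-values below therefore rest on the spread among these libraries, which may be technical. A library of sorted cells does not separate fewer cells of a type from less RNA per cell.

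TRIM proteins share a RING domain, 1 or more B-boxes and a coiled coil, and most act as E3 ubiquitin ligases. The RING domain brings in a ubiquitin-loaded conjugating enzyme, the coiled coil pairs the proteins, and a variable C-terminal domain binds the target. Many members act in innate immunity, where interferon raises their transcripts and where they act on sensors of viral RNA or on retroviral capsids; others work in chromatin repression, protein quality control, muscle, neurons and red cell precursors.

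Some measures of the whole libraries set the frame. Gated values were taken as RPKM, reads scaled to transcript length and library depth. The smallest steps of the low values put the depth, in units of 1e6 reads, at 65.7 to 85.2 for FSC-A High and 69.4 to 98.2 for FSC-A Low. Limma was run on log2(RPKM + 1) for 10619 genes, and a gene was called past an adjusted p (Benjamini-Hochberg) of 0.05. FSC-A High was higher for 1657 genes (15.6%) and lower for 1245 (11.7%), which makes 27.3% called. Longer transcripts had more negative differences, with Spearman's rho at -0.42 over 10460 genes in the same 7 libraries. Of 7 HSC marker genes 4 fell and 0 rose, and their summed level was 180 to 275 RPKM in FSC-A High, against 374 to 501 RPKM in FSC-A Low. In FSC-A High the summed markers of hepatocytes were at 12.1 to 16.0 RPKM, of macrophages at 14.2 to 29.0, of erythroid cells at 109 to 237, of endothelium at 2.46 to 7.93, of granulocytes at 100.4 to 144, of B cells at 18.02 to 56.1, of T cells at 5.65 to 14.0 and of megakaryocytes at 68.1 to 102. The same sums in FSC-A Low were 7.39 to 16.7 RPKM for hepatocytes, 10.2 to 16.1 for macrophages, 67.8 to 100.3 for erythroid cells, 9.72 to 16.7 for endothelium, 98.04 to 101 for granulocytes, 18.6 to 32.1 for B cells, 5.52 to 9.69 for T cells and 52.1 to 65.9 for megakaryocytes. Among all these markers of other cells, 1 erythroid gene (Hbb-bt) rose and 1 endothelial gene (Pecam1) fell. With the length trend removed Hbb-bt did not pass (log2 difference 0.41 in place of 1.06, limma adjusted p = 0.322), Pecam1 did, and 3 of the 7 HSC markers fell. The 4 genes found of those the sort selected against summed to 0.419 to 3.76 RPKM in FSC-A High and 1.10 to 2.35 RPKM in FSC-A Low. Cd3e was at 0 in all 7 libraries, and so were 2 of the B cell markers and 1 of the T cell markers. The part of any of these in the Trim results was not tested.

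Most tested Trim genes lay lower in FSC-A High than in FSC-A Low. Of 65 Trim genes 28 reached 1 RPKM in at least 3 of the 7 gated libraries and were tested. 10 of these 28 fell in FSC-A High (Trim8, Trim11, Trim12c, Trim14, Trim27, Trim28, Trim30a, Trim35, Trim44 and Trim65), 1 rose (Trim59), and 17 did not pass, where 11.7% of all tested genes fell and 15.6% rose. The ratio of mean RPKM, FSC-A High over FSC-A Low, ran from 0.189 to 0.650 over the 10 genes that fell. The median log2 difference was -0.59 over the 28 Trim genes, beside -0.04 over all tested genes, and 24 of the 28 were negative, where 52.4% of all tested genes were. In 13 of the 28 every FSC-A High library lay below every FSC-A Low library, a pattern held by 16.0% of all tested genes. None of the 28 showed the opposite separation, which 18.9% of all tested genes did (34.9% in either direction). 14 of the 28 had an unadjusted p under 0.05. Summed over all Trim genes, the level was 588, 476, 491 and 450 RPKM in the FSC-A High libraries, against 846, 787 and 845 RPKM in the FSC-A Low libraries. All 28 reached 1 RPKM in at least 1 library of each group, and 19 of them in all 7 libraries. 4 of them (Trim6, Trim12c, Trim41 and Trim44) reached it in all FSC-A Low libraries but in fewer than 3 FSC-A High libraries, so that FSC-A Low alone carried them past the filter.

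**Figure D1:**
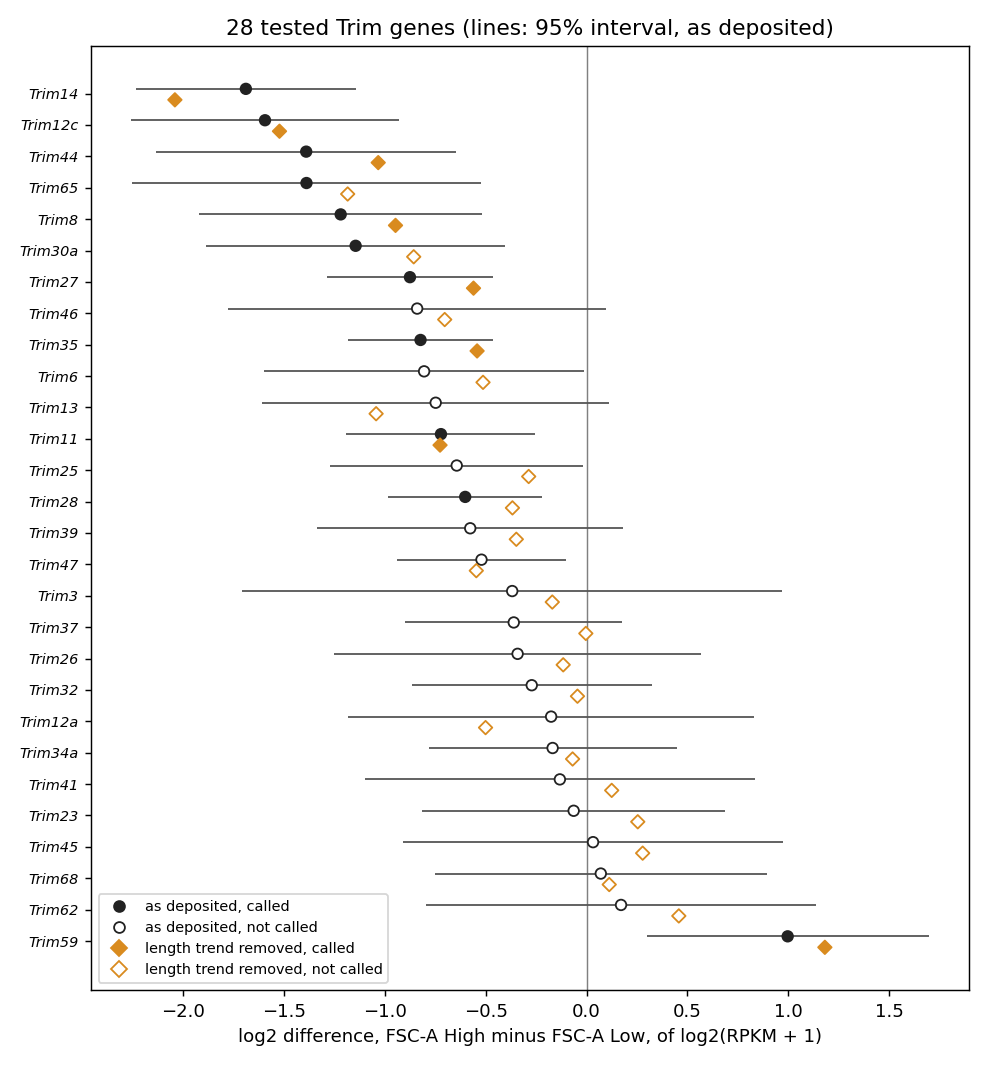
The plot gives, for each of the 28 tested Trim genes, the log2 difference of RPKM + 1, FSC-A High minus FSC-A Low, as deposited (circles, with lines for the 95% interval) and after removal of the transcript length trend (diamonds). Filled symbols mark genes past an adjusted p of 0.05, and 24 of 28 circles lie left of 0.

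Grouped by their C-terminal domain, the genes that fell were spread over several subfamilies. The PRY-SPRY subfamily, whose C-terminal domain serves many immune members in target binding, held 34 of the 65 genes, of which 16 were tested, 6 fell and 0 rose, where 11.7% of all tested genes fell and 15.6% rose. With the length trend removed 4 of the 16 fell, where 8.66% of all genes did. Both tested members without a RING domain, Trim14 and Trim44, fell. In the subfamily with a PHD finger and bromodomain, Trim28 was the 1 tested gene of 3 and fell. Trim8 was the 1 tested gene of 7 with no named C-terminal domain and fell. Trim28 did not pass with the length trend removed, and Trim8 did not pass with length and GC trends removed. Trim14 and Trim44 passed both ways. Of the 2 members anchored in membranes, Trim59 rose and Trim13 did not pass. None of the tested genes with NHL repeats (Trim3 and Trim32), a MATH domain (Trim37), an ARF domain (Trim23), a filamin repeat (Trim45) or a COS box with fibronectin repeat (Trim46) passed. All 3 muscle RING finger genes, Trim54, Trim55 and Trim63, were below the filter. Trim6, Trim12c, Trim41 and Trim44 are counted here although FSC-A Low alone carried them past the filter. The subfamilies are of very unequal size, and no difference between them was tested.

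Trim14, an adaptor of the mitochondrial antiviral protein MAVS that has no RING domain, showed the smallest adjusted p among the Trim genes. Trim14 (NM_029077, chromosome 4, 46505072 to 46536150 on GRCm38) was at 58.9, 23.7, 31.4 and 30.7 RPKM in the FSC-A High libraries, against 104, 109 and 125 RPKM in the FSC-A Low libraries. The groups did not overlap, and FSC-A High 1 was the highest of its group. Its mean was 36.2 ± 15.6 RPKM in FSC-A High and 113 ± 10.8 RPKM in FSC-A Low (SD, n = 4 and n = 3), and limma put the log2 difference at -1.69 (SE 0.25, adjusted p = 0.000424). About 2742 to 15253 reads lay behind each of these values. Gm16731, a transcript on the opposite strand, shares 8.48% of the 50-base windows of the Trim14 transcript. The Trim14 span overlaps that of Nans, a sialic acid synthesis enzyme on the opposite strand, over 9852 bases, and the Smart-seq2 method does not keep strand. Nans rose, with 54.0 ± 8.73 RPKM in FSC-A High and 25.7 ± 9.80 RPKM in FSC-A Low (SD, n = 4 and n = 3; log2 difference 1.11, limma adjusted p = 0.00745), so the 2 neighbours moved in opposite directions.

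A cluster of PRY-SPRY genes on chromosome 7 holds the mouse relatives of primate TRIM5, a restriction factor that binds retroviral capsids. 8 of the Trim genes lie there within 289 kb (104218795 to 104507853), 5 were tested, and 2 of them, Trim12c and Trim30a, fell, where 11.7% of all tested genes did. With the length trend removed 1 of the 5, Trim12c, fell, where 8.66% of all genes did. FSC-A Low alone carried Trim6 and Trim12c past the filter, so these counts are not independent of it. Trim12c and Trim30a both have, in the 250 bases before their start, a match to the core of the interferon-stimulated response element. This core, GAAA, any 2 bases and GAAA again, was searched on both strands, and the matches are why these promoters are shown. They are from RefSeq's table for GRCm38.p6, read 5′ to 3′ on the minus strand, with the match, on the opposite strand, in capitals. The Trim12c window is chr7:104353350-104353599 and the Trim30a window chr7:104465194-104465443. The Trim12c window begins inside the span given below for that gene, which ends at 104353358. Its start site is therefore not the outer end of that span.
Trim12c: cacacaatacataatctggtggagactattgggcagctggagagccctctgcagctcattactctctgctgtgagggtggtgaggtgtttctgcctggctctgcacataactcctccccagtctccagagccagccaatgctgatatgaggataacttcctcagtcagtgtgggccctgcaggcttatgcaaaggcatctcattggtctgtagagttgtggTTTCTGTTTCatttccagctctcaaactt
Trim30a: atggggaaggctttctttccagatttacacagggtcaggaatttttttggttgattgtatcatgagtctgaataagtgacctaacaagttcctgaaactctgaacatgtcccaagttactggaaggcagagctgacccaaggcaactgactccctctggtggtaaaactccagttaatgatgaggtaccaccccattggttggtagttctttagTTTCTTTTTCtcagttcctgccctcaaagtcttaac
The matches lay 19 and 26 bases before the start site in Trim12c and Trim30a. A second listed start of Trim30a had none. The motif was in 2.977% of 32851 promoter windows of this length, and in 3 of the 28 windows found for 22 of the tested Trim genes, the other being that of Trim26. A match of letters is a description of the window only.

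Trim12c (NM_175677, 104338754 to 104353358) was at 0.636, 0.680, 1.16 and 1.03 RPKM in FSC-A High, against 4.25, 5.32 and 4.36 RPKM in FSC-A Low. These are low levels, with an estimated 104 to 1297 reads each, but the groups were well apart. The mean was 0.878 ± 0.260 RPKM in FSC-A High and 4.64 ± 0.585 RPKM in FSC-A Low (SD, n = 4 and n = 3), and limma gave a log2 difference of -1.59 with SE 0.31 and adjusted p = 0.00221. Of the 50-base windows of the Trim12c transcript 42.0% occur in other genes, mainly Trim5 and Trim12a, so its reads may be shared among these copies. Trim12a itself had 4.32 ± 2.70 RPKM in FSC-A High and 5.02 ± 3.11 RPKM in FSC-A Low (SD, n = 4 and n = 3) and did not pass (log2 difference -0.18, limma adjusted p = 0.815).

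Trim30a, which restrains NF-kB signalling downstream of Toll-like receptors in mouse cells, was at 0.885, 1.35, 1.37 and 1.77 RPKM in FSC-A High, against 6.70, 2.88 and 3.52 RPKM in FSC-A Low (NM_009099, 104409025 to 104465193). No library of one group reached the range of the other, and FSC-A Low 1 stood highest. The mean was 1.34 ± 0.361 RPKM in FSC-A High and 4.37 ± 2.04 RPKM in FSC-A Low (SD, n = 4 and n = 3), and the log2 difference -1.14 (SE 0.34, adjusted p = 0.0255 by limma). The call did not hold without FSC-A High 1, 2 or 3 or FSC-A Low 1, where limma's adjusted p was 0.0568, 0.0526, 0.0534 and 0.109. With the replicate number as a block it was 0.0554, and without a filter 0.0578. Trim30d shares 6.53% of the 50-base windows of the Trim30a transcript. The other 3 tested genes of the cluster, Trim6, Trim12a and Trim34a, had log2 differences of -0.80, -0.18 and -0.17 and did not pass, and 62.2% of the 50-base windows of Trim34a also occur in other genes, chiefly its copy Trim34b.

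Ligases that act on RNA sensors gave 1 call. Trim65, which ubiquitinates the sensor MDA5 (Ifih1), was at 3.82, 2.18, 3.77 and 3.12 RPKM in FSC-A High, against 6.20, 21.6 and 6.996 RPKM in FSC-A Low (NM_178802, chromosome 11, 116124708 to 116131413). The groups did not overlap, and FSC-A Low 2 was far above its group. Its log2 difference was -1.39 (SE 0.40, limma adjusted p = 0.0211) between means of 3.23 ± 0.765 RPKM in FSC-A High and 11.6 ± 8.65 RPKM in FSC-A Low (SD, n = 4 and n = 3). Without FSC-A Low 2 the log2 difference was -0.86 (adjusted p = 0.0931), without FSC-A High 2 it was -1.26 (adjusted p = 0.0575), and with the replicate block -1.38 (adjusted p = 0.0644), all by limma. Without a filter limma's adjusted p was 0.0927. The spans given here for Trim65 and its neighbour Trim47 do not overlap. In another annotation, with longer transcripts, the genes overlap on the same strand over 5365 bases. Of the Trim65 windows of 50 bases, 5.94% are shared with Trim47. Trim25, which ubiquitinates the sensor RIG-I, was at 3.34, 3.61, 2.68 and 3.26 RPKM in FSC-A High, against 5.55, 6.31 and 4.94 RPKM in FSC-A Low. Its groups did not overlap either, but it did not pass (log2 difference -0.64, 95% interval -1.27 to -0.02, limma adjusted p = 0.119). Trim21, a cytosolic antibody receptor, stayed below 1 RPKM in all 7 gated libraries, with 0.0336, 0.877, 0.180 and 0.910 RPKM in FSC-A High and 0.0102, 0.124 and 0.376 RPKM in FSC-A Low.

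**Figure D2:**
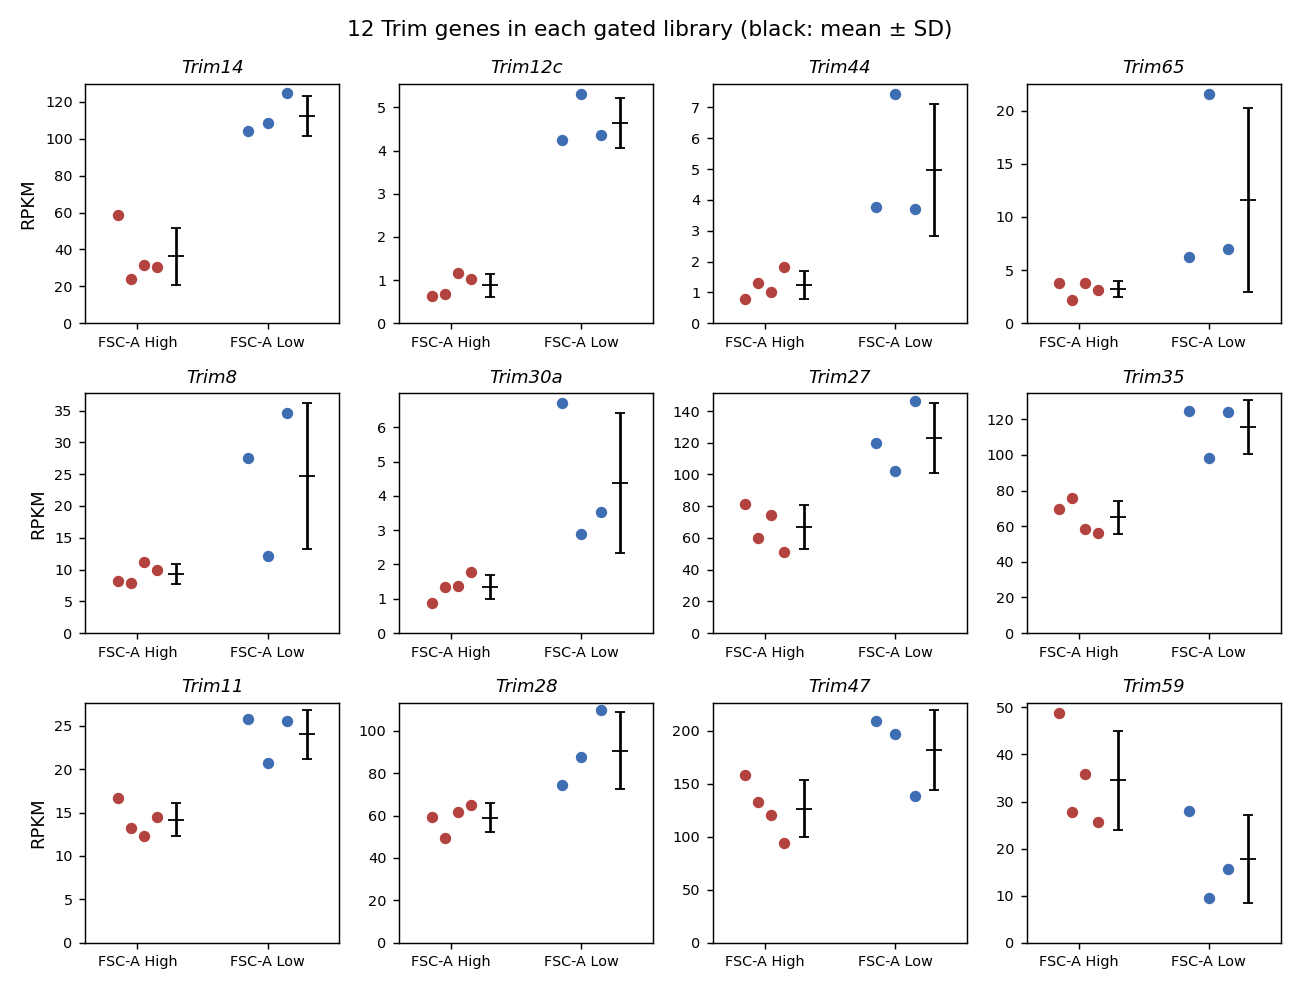
Points give RPKM in each gated library for 12 Trim genes, the 11 called and Trim47, FSC-A High left (n = 4) and FSC-A Low right (n = 3), each axis starting at 0, with the mean ± SD in black. In the 10 genes that fell all FSC-A High points lie below all FSC-A Low points, while in Trim59 and Trim47 the groups overlap.

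Among members that act in the nucleus, Trim27 and Trim28 were abundant and fell. Trim27, also known as Ret finger protein, a ligase that also represses transcription, was at 81.3, 60.1, 74.7 and 51.4 RPKM in FSC-A High, against 120, 102 and 146 RPKM in FSC-A Low (NM_009054, chromosome 13, 21179450 to 21194723). The groups were apart, with a limma log2 difference of -0.87 (SE 0.19, adjusted p = 0.00473) and means of 66.9 ± 13.6 RPKM in FSC-A High and 123 ± 22.2 RPKM in FSC-A Low (SD, n = 4 and n = 3). An antisense gene, Gm47806, covers 8112 bases of its span, and unstranded reads do not tell them apart. Trim28, the corepressor KAP1 that KRAB zinc finger proteins bring to retroelements, was at 59.5, 49.4, 61.7 and 65.2 RPKM in FSC-A High, against 74.2, 87.8 and 109.9 RPKM in FSC-A Low (NM_011588, chromosome 7, 13024152 to 13031032). FSC-A High and FSC-A Low did not overlap, but the highest FSC-A High library came close to the lowest FSC-A Low library. The log2 difference of Trim28 was -0.60 (SE 0.18, limma adjusted p = 0.0229), and its means were 58.9 ± 6.79 RPKM in FSC-A High and 90.6 ± 17.99 RPKM in FSC-A Low (SD, n = 4 and n = 3). The call did not hold without FSC-A High 2 (adjusted p = 0.0658) or FSC-A Low 3 (adjusted p = 0.105), without the mean-variance trend (0.0708) or without a filter (0.0531), all by limma. Zbtb45, on the opposite strand over 6137 bases of the Trim28 span, had 6.85 ± 1.70 RPKM in FSC-A High and 6.68 ± 0.385 RPKM in FSC-A Low (SD, n = 4 and n = 3; limma adjusted p = 0.987). The relatives of Trim28 with the same domains, Trim24 and Trim33, were below the filter in the gated libraries, at no more than 1.08 and 1.03 RPKM.

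Trim35, first described as a haemopoietic lineage switch gene, was among the 5 Trim genes with the highest mean RPKM over the 7 gated libraries, and fell. It was at 69.9, 75.7, 58.4 and 56.4 RPKM in FSC-A High, against 125, 98.4 and 124 RPKM in FSC-A Low (NM_029979, chromosome 14, 66297025 to 66311424). All FSC-A High values lay below all FSC-A Low values. Means were 65.1 ± 9.23 RPKM in FSC-A High and 116 ± 15.1 RPKM in FSC-A Low (SD, n = 4 and n = 3), and the log2 difference by limma was -0.82 (SE 0.17, adjusted p = 0.00294). Trim11, described as a ligase in the clearance of misfolded proteins, was at 16.7, 13.2, 12.3 and 14.5 RPKM in FSC-A High, against 25.8, 20.7 and 25.5 RPKM in FSC-A Low (NM_053168, chromosome 11, 58973726 to 58991462). Again all FSC-A High values were below all FSC-A Low values. The log2 difference of Trim11 was -0.72 with SE 0.22 (adjusted p = 0.0255 by limma), with means of 14.2 ± 1.89 RPKM in FSC-A High and 24.0 ± 2.84 RPKM in FSC-A Low (SD, n = 4 and n = 3). Its call ended without FSC-A High 2, FSC-A High 3, FSC-A Low 1 or FSC-A Low 3, where limma's adjusted p was 0.0632, 0.0725, 0.0821 and 0.0741, and with the replicate block (0.0622).

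Trim8, a ligase in tumour necrosis factor and cytokine signalling, was at 8.13, 7.85, 11.2 and 9.97 RPKM in FSC-A High, against 27.5, 12.1 and 34.7 RPKM in FSC-A Low (NM_053100, chromosome 19, 46501648 to 46516805). FSC-A Low 2 lay close to the FSC-A High range and the other FSC-A Low libraries well above it. Means were 9.29 ± 1.59 RPKM in FSC-A High and 24.8 ± 11.5 RPKM in FSC-A Low (SD, n = 4 and n = 3), and the log2 difference was -1.22 (SE 0.32, limma adjusted p = 0.0142). Without FSC-A Low 1 or FSC-A Low 3 limma's adjusted p was 0.0552 and 0.0696, and without a filter it was 0.0700. Trim44, which has a zinc finger of the ubiquitin protease type in place of a RING domain, was at 0.787, 1.29, 0.997 and 1.83 RPKM in FSC-A High, against 3.77, 7.44 and 3.72 RPKM in FSC-A Low (NM_020267, chromosome 2, 102300119 to 102400900). FSC-A Low 2 was the highest here, and the groups were apart. FSC-A Low alone carried Trim44 past the filter, so this separation is not independent of it. Means were 1.23 ± 0.453 RPKM in FSC-A High and 4.97 ± 2.14 RPKM in FSC-A Low (SD, n = 4 and n = 3), and limma put the log2 difference at -1.39 (SE 0.34, adjusted p = 0.00962).

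Trim59, a membrane-anchored ligase described in proliferating cells, was the 1 Trim gene that rose. It was at 48.8, 27.7, 35.8 and 25.7 RPKM in FSC-A High, against 28.1, 9.59 and 15.7 RPKM in FSC-A Low (NM_025863, chromosome 3, 69035292 to 69044742). The groups overlapped, since FSC-A Low 1 lay above FSC-A High 2 and FSC-A High 4. Means were 34.5 ± 10.5 RPKM in FSC-A High and 17.8 ± 9.42 RPKM in FSC-A Low (SD, n = 4 and n = 3), and limma's log2 difference was 1.00 (SE 0.32, adjusted p = 0.0361). The call ended without FSC-A High 1, FSC-A High 3, FSC-A Low 2 or FSC-A Low 3, where limma's adjusted p was 0.0891, 0.0797, 0.141 and 0.0811, and the log2 difference was 0.64 without FSC-A Low 2. It also ended with values scaled to library totals (log2 difference 0.70, limma adjusted p = 0.134), without a filter (0.148), on the sum over transcripts (0.0515) and without the mean-variance trend (0.0761). Pseudogene copies (Gm15381 and Gm4921) share 6.61% of its 50-base windows. Its promoter is shown because it holds a match to the cell cycle homology region, the letters TTTGAA on either strand, seen in promoters of genes that peak in late cell cycle phases. The window is chr3:69044743-69044992 of GRCm38.p6 from RefSeq, read 5′ to 3′ on the minus strand, with the match in capitals.
Trim59: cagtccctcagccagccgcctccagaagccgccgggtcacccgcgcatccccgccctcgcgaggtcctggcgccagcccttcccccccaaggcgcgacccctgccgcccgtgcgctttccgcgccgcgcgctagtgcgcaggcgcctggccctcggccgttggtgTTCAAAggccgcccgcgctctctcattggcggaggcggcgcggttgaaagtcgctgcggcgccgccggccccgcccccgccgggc
The match ended 79 bases before the start site. These letters were in 15.99% of all 32851 windows, and in 2 of the 28 Trim windows, those of Trim32 and Trim59. An E2F site (TTTCCCGC, in 0.8949% of windows) was found in the Trim44 window alone among these 28, and its variant TTTGGCGC (0.417% of windows) in none. CCAAT was in 33.85% of all windows and in 13 of the 28, and the STAT site TTCNNNGAA was in 7.02% of all windows and in 2 of the 28 (Trim45 and Trim46). The E2F and STAT sites were searched as letters on both strands, and CCAAT likewise.

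Of the 17 tested Trim genes that did not pass, adjusted p ran from 0.0622 to 0.964. Trim47, a PRY-SPRY ligase and the Trim gene with the highest mean RPKM over the 7 gated libraries, was at 159, 133, 121 and 94.5 RPKM in FSC-A High, against 209.6, 198 and 139 RPKM in FSC-A Low (NM_172570, chromosome 11, 116105750 to 116110235). The groups overlapped, with FSC-A Low 3 below FSC-A High 1. The log2 difference was -0.52 (95% interval -0.94 to -0.10, limma adjusted p = 0.0622). It passed without FSC-A High 1 (limma adjusted p = 0.0278) or FSC-A Low 3 (0.0240), and with a filter of 5 RPKM (0.0408) or scaling to library totals (0.00714). Under the other 20 of 24 alternatives Trim47 did not pass. With transcript length and GC trends removed its log2 difference was -0.13 (limma adjusted p = 0.622), and without FSC-A Low 1 it was -0.41 (0.195). Trim13, Trim25 and Trim46 did not pass although their groups did not overlap. Trim13, a ligase of the endoplasmic reticulum, had 7.56 ± 3.58 RPKM in FSC-A High and 12.2 ± 2.52 RPKM in FSC-A Low, and the neuronal microtubule protein Trim46 had 3.43 ± 1.87 RPKM in FSC-A High and 6.38 ± 2.26 RPKM in FSC-A Low (SD, n = 4 and n = 3 for each). Their log2 differences were -0.75 (95% interval -1.61 to 0.11) and -0.84 (95% interval -1.78 to 0.10). Trim3 was at 1.96, 0.815, 0.432 and 1.499 RPKM in FSC-A High and at 0.137, 0.665 and 9.44 RPKM in FSC-A Low, and its log2 difference of -0.37 had an interval from -1.71 to 0.97. Trim32, with NHL repeats, and Trim37, which helps to control centriole number, had log2 differences of -0.27 and -0.36. Trim23, Trim45, Trim62 and Trim68 had log2 differences between -0.06 and 0.17, and the remaining Trim26, Trim39 and Trim41 had -0.34, -0.58 and -0.13. An interval that spans 0 does not show that a gene was equal in FSC-A High and FSC-A Low.

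37 of the 65 Trim genes were below the filter. 18 were listed at 0 in all 7 gated libraries, among them the erythroid gene Trim10, the muscle genes Trim55 and Trim63, and Trim72, a membrane repair protein of muscle. The others at 0 were Trim15, Trim17, Trim29, Trim31, Trim38, Trim40, Trim42, Trim43a, Trim43b, Trim50, Trim52, Trim60, Trim69 and Trim75. For a transcript of 1 kb a listed 0 leaves room for up to 3 reads, or 0.0306 to 0.0457 RPKM over the 7 libraries, counting error only. The other 19 were above 0 in at least 1 library, with a highest value of 2.13 RPKM for Trim16 in FSC-A Low 1. Trim30d reached 1 RPKM in 2 libraries (FSC-A High 4 and FSC-A Low 1) and 6 genes did in 1 library. The erythroid gene Trim58 was at 0, 0.440, 0 and 0.353 RPKM in FSC-A High and at 1.12, 0 and 0 RPKM in FSC-A Low. Trim2, Trim7, Trim9, Trim30b, Trim34b, Trim36, Trim43c, Trim54, Trim56, Trim61, Trim66, Trim67 and Trim71, with Trim21, Trim24 and Trim33 described above, made up the rest, with Trim71, the developmental regulator Lin-41, at no more than 0.00268 RPKM.

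Because differences fell with transcript length, the comparison was repeated after removing that trend within each library. The tested Trim transcripts had a median length of 3197.5 nt, against 2544 nt for all tested genes. With the trend removed, 7 Trim genes fell, 1 rose and 20 did not pass, where 8.66% of 10460 genes fell and 9.94% rose (18.6% in either direction). The median log2 difference over the 28 Trim genes was -0.43, beside -0.02 over all genes, and 22 of the 28 were negative, where 51.1% of all genes were. Spearman's rho between difference and length over all genes was then -0.02. 8 genes were called both ways. Trim28, Trim30a and Trim65 no longer passed, with log2 differences of -0.37, -0.86 and -1.18 (limma adjusted p = 0.130, 0.0953 and 0.0559), and no gene was gained. Trim14, whose transcript of 1429 nt is the shortest of the tested Trim genes, moved further from 0, to -2.04 (limma adjusted p = 0.000321), and Trim59 to 1.18 (limma adjusted p = 0.0184). Trim12c, Trim44, Trim8, Trim27, Trim35 and Trim11 stayed past the threshold at -1.52, -1.03, -0.95, -0.56, -0.54 and -0.73 (limma adjusted p = 0.00632, 0.0406, 0.0434, 0.0340, 0.0200 and 0.0369). Trim37, with 5632 nt the longest tested Trim transcript, was then at -0.0035. When GC content was removed together with length, 6 Trim genes fell and 1 rose, where 8.38% of genes fell and 9.37% rose (17.8% in either direction), with a median of -0.31 over the Trim genes. Trim8 and Trim11 then did not pass (limma adjusted p = 0.144 and 0.128), Trim30a did (0.0463), and Trim28 was at -0.10 (0.730). 6 genes, Trim12c, Trim14, Trim27, Trim35, Trim44 and Trim59, were called in all 3 fits. FSC-A Low alone had carried Trim12c and Trim44 past the filter, so the counts here that include them are not independent of it.

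**Figure D3:**
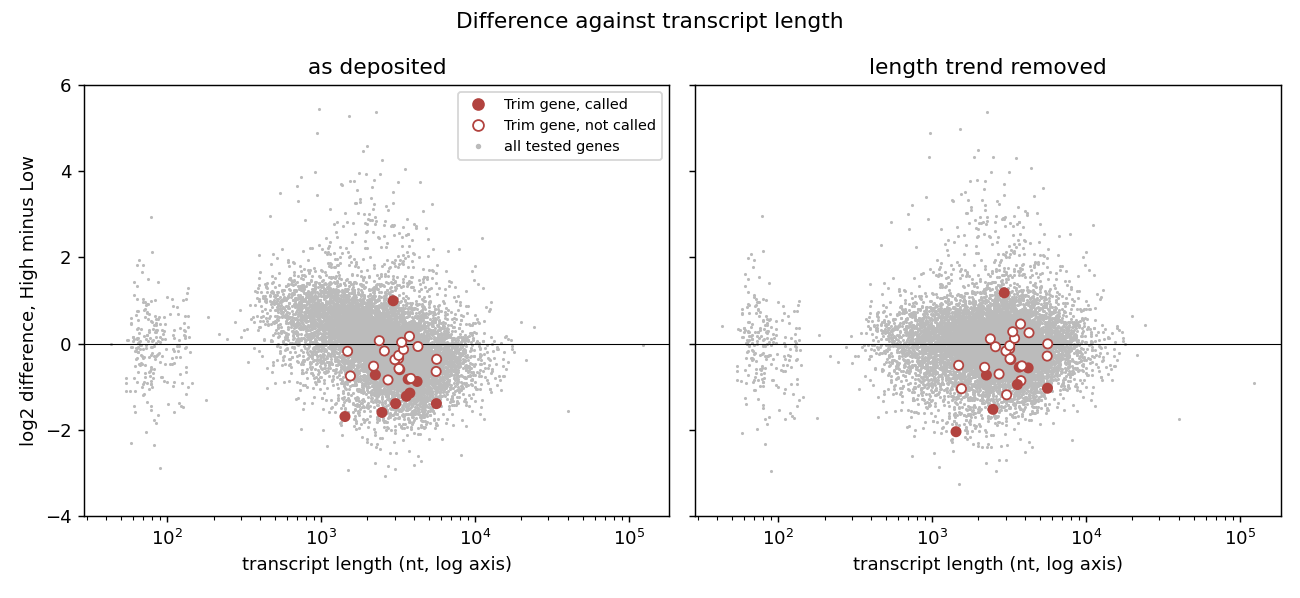
Each grey point is a tested gene, with its log2 difference (FSC-A High minus FSC-A Low) against transcript length in nt on a log axis, as deposited on the left and with the length trend removed on the right. Red circles are Trim genes, filled where called, and their median of -0.59 on the left is -0.43 on the right.

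Genes that work with the TRIM proteins did not follow a single direction, and their counts stand beside 11.7% of all tested genes that fell and 15.6% that rose, or 8.66% and 9.94% with the length trend removed. Pml, a TRIM protein under another name and the organiser of nuclear bodies, was the 1 tested gene of 4 such relatives and fell, with 5.20 ± 1.35 RPKM in FSC-A High and 15.3 ± 1.90 RPKM in FSC-A Low (SD, n = 4 and n = 3; log2 difference -1.41, limma adjusted p = 0.00241). Of 13 genes of the KRAB repression pathway in which Trim28 acts, 3 rose, 2 fell and 8 did not pass, with a median log2 difference of -0.03. Atf7ip, the partner of the methyltransferase Setdb1, fell to 8.22 ± 0.866 RPKM in FSC-A High, against 54.4 ± 6.60 RPKM in FSC-A Low (SD, n = 4 and n = 3; log2 difference -2.59, limma adjusted p = 4.31e-06). The heterochromatin protein genes Cbx5 and Cbx1 rose by 1.22 and 0.61 on the log2 scale (limma adjusted p = 0.00386 and 0.0132), and the deacetylase Hdac2 fell by 0.64 (0.0182). Another deacetylase, Hdac1, rose by 0.57 (limma adjusted p = 0.0286). With the length trend removed, 1 of these 13 rose (Cbx5) and 2 fell (Atf7ip and Hdac2). Of 13 tested ubiquitin activating and conjugating enzymes, out of 15 listed, 2 rose (Ube2n by 0.83 and Ube2l6 by 0.46 on the log2 scale), 1 fell (the activating enzyme Uba1, by 0.63) and 10 did not pass, with limma adjusted p = 0.0320, 0.0457 and 0.0243 for those named. Their median was -0.16. With the length trend removed 0 fell and 2 rose, Ube2n (1.13, limma adjusted p = 0.00430) and Ube2k (0.60, 0.0447), while Ube2l6 no longer passed (0.17, 0.519). Of 13 genes of RNA sensing and its signalling, 0 rose, 2 fell and 11 did not pass, with a median of -0.22. Those that fell were the sensor RIG-I (Ddx58, log2 difference -1.31, limma adjusted p = 0.0110) and the interferon signal transducer Stat2 (log2 difference -1.30, limma adjusted p = 0.0233), and with the length trend removed 1 fell (Ddx58) and 0 rose. The shares that fell in the RNA sensing and KRAB lists are near that of all tested genes that fell. The share of the ubiquitin enzymes that rose is near that of all tested genes that rose.

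The WT HSC libraries were in another unit and were not compared with the gated ones. Their values were whole multiples of 1 read, which gave 30889443, 21307178, 27206879 and 29952311 reads for WT HSC 1 to 4, and levels are given as these reads per kilobase of transcript and per 1e6 reads of the library. WT HSC 4 stood apart, with 15.2% of reads on the ribosomal gene Rn45s against 3.06% to 5.26% in the other 3, 11384 genes above 0 against 12909 to 13368, and rank correlations across genes of at most 0.924 with the others, which reached 0.956 among themselves. 24 Trim genes were at 1 or more in all 4 libraries, and 30 in WT HSC 1 to 3. Of these 24, 22 were tested in the gated libraries and 2, Trim30d and Trim33, were below the filter there. 6 genes tested in the gated libraries were below 1 in at least 1 WT HSC library. 21 Trim genes had 0 reads in all 4, where 3 reads would be 0.0971 to 0.141 per 1e6 reads.

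Trim28 was at the top of the WT HSC levels, with 169, 124, 133 and 89.4 in WT HSC 1 to 4 (129 ± 32.7, SD, n = 4). Trim27 had 60.0 ± 13.2 and Trim47 42.0 ± 12.1, whose ranges of 42.1 to 73.3 and 28.4 to 53.1 overlapped, while Trim28 lay above both in every library. Trim30a, at 29.8, 43.1, 43.2 and 42.4 (39.6 ± 6.52), and Trim12a, at 35.6 ± 7.78, came next, ahead of Trim34a (30.8 ± 9.32) and Trim35 (29.7 ± 12.9). The ranges of these 4 and of Trim47 overlapped. Trim12c had 17.9, 19.5, 12.8 and 29.96 (20.05 ± 7.20), Trim14 15.1, 15.5, 14.7 and 29.2 (18.6 ± 7.04), and Trim44 14.7, 14.7, 14.3 and 6.20. Trim59 was at 22.2, 17.5 and 25.5 in WT HSC 1 to 3 and at 0.875 in WT HSC 4. Trim11 and Trim8 averaged 13.0 ± 8.81 and 11.3 ± 3.73, and Trim65 was at 4.10, 3.14, 2.70 and 15.04 (SD, n = 4 for all means here). Of the Trim28 relatives, Trim33 was at 7.38, 5.14, 8.29 and 4.37, and Trim24 at 5.98, 6.14, 4.59 and 0.728. Trim41 was at 11.5, 7.45 and 11.1 in WT HSC 1 to 3 and at 0.00973 in WT HSC 4. The WT HSC data hold 1 value for a gene and the gated data 1 for a transcript, so the order of genes in the 2 kinds of table was not set against each other.

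**Figure D4:**
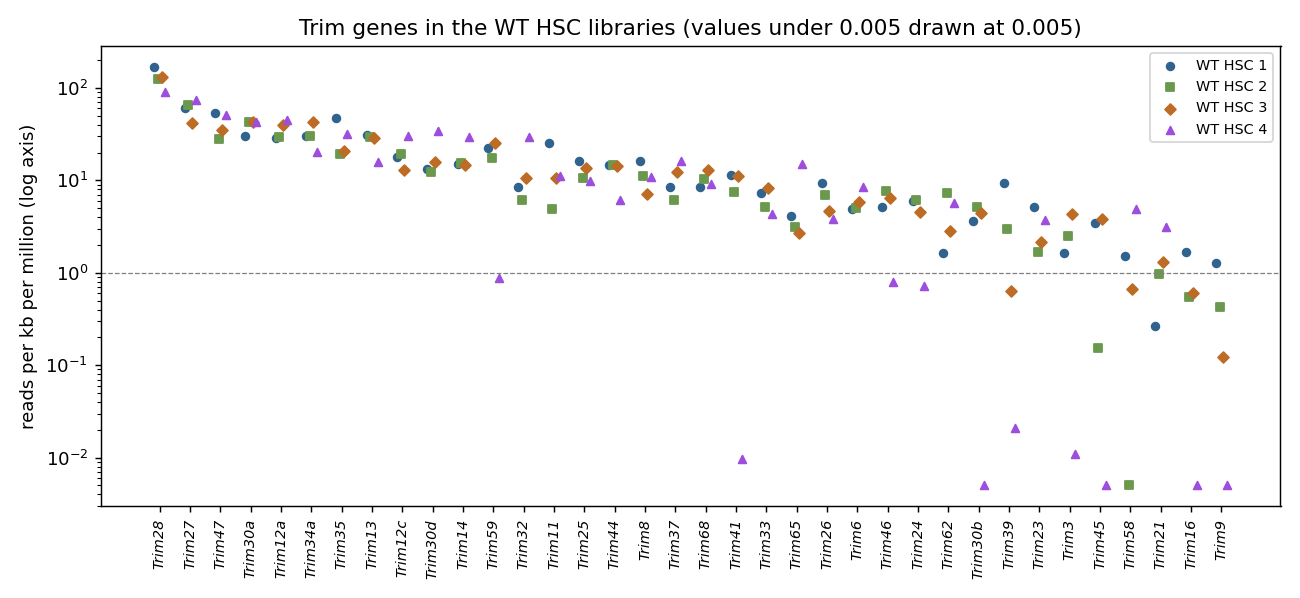
Points give reads per kilobase of transcript and per 1e6 reads (log axis) for Trim genes in WT HSC 1 to 4, with the dashed line at 1. Trim28 is highest, at 89.4 to 169, and WT HSC 4 lies well below the other 3 libraries in several genes, among them Trim59, Trim24, Trim41, Trim46, Trim30b and Trim3.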

How the data were processed

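Smart-seq2 libraries of sorted HSCs were analysed from per-library tables. STAR, DESeq2 and the mm10 build are named in the submitters' processing notes, without roles or versions. The authors deposited 1 value per transcript for the gated libraries, in a unit the sources used here do not name. These deposited values were read as RPKM made by the authors, reads per transcript scaled to its length and to library depth, from the steps of the low values. The WT HSC tables hold a signal that the authors deposited per gene, whose values were whole multiples of 1 read in every library (100% within 0.01 of a whole number), so reads were recovered.

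Gated values were tested with limma 3.58.1 (R 4.3.3; lmFit and eBayes with trend) on log2(RPKM + 1), which understates the change of low genes. A gene entered where 3 or more of the 7 libraries held 1 RPKM or more, and p-values were adjusted by Benjamini-Hochberg over 10619 genes. A count test had been named for counts. It was not used for the gated tables, which are RPKM, and the WT HSC reads form a single group with no comparison to test. On simulated data with 200 changed genes of 10619, 55% of log2 changes of 1 and 100% of those of 2 were recovered, with 16 false calls. The simulated noise was normal, with an SD set by the mean level alone, and there was no length trend. In the data 27.3% of genes were called, so these rates may not hold for the libraries themselves. The length trend was removed within each library with a natural spline of 5 degrees of freedom over log2 transcript length, from GENCODE M21 transcripts matched by RefSeq identifier, and these may not be the lengths the authors used. edgeR 4.0.16 served only for TMM factors. Tables were handled with Python 3.11.15, numpy 2.4.6, pandas 2.3.3 and matplotlib 3.10.9.

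Values per library are given for Trim genes called in the deposited scale, those lost or gained without the length trend, and the 5 with the highest mean RPKM over the gated libraries. Trim3, Trim21, Trim25, Trim58 and several WT HSC values were added to these after their values were seen. The Trim genes, the partner lists, the marker lists and the tests were chosen with earlier results of these data known. Alternatives covered pseudocount, filter, scaling, transcript choice, weights, variance trend, threshold, replicate block and leaving out each library.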

Additional observations from a re-analysis of the deposited data

Results flagged for a closer look

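6 Trim levels in the WT HSC libraries stood apart from the other libraries of their group, each being a single library whose gap to its nearest neighbour took most of the group's range. 64 groups of 4 libraries were looked at in this way, and chance sets about 1 in 20 groups apart. None of the FSC-A High groups was among them, and the FSC-A Low group of 3 was too small to be examined. 5 of the 6 were in WT HSC 4, the library with the most Rn45s reads and the fewest genes above 0. In reads per kilobase of transcript and per 1e6 reads, Trim14 was at 29.2 in WT HSC 4, where the other libraries were at 14.7 to 15.5. Trim30d was at 33.9 there, against 12.4 to 15.9 in the others, and Trim65 was at 15.04, against 2.70 to 4.10. Trim13 was at 15.8 in WT HSC 4, against 28.7 to 31.2 in the others, and Trim44 was at 6.20, against 14.3 to 14.7. The sixth was Trim30a in WT HSC 1, at 29.8, against 42.4 to 43.2 in the others. Whether the library or the genes gave these values was not tested.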

How the results depend on the processing

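None of the 11 called Trim genes, nor Trim47, changed direction under any alternative run for it. Trim14 and Trim27 were called under all 24 alternatives. Trim12c and Trim44 were called under all 23 run for them, but the filter of 5 RPKM left both out. FSC-A Low alone had carried these 2 genes past the main filter. Trim35 missed the threshold in 1 of 24, the replicate block with the length trend removed (adjusted p = 0.0711). Of all tested genes 2902 were called, and 1857 with length and GC trends removed, 1431 with the block and the length trend removed, 1609 at an adjusted p below 0.01, and 2218 to 2805 with 1 library left out. The 10 Trim genes that fell became 6 with length and GC removed (8.38% of all genes fell), 6 without a filter (of 47 fitted, where 5.36% of genes fell), 5 with the block and the length trend removed (6.37%), 5 at an adjusted p below 0.01 (5.13%), and 6 to 10 with 1 library left out, the lowest without FSC-A High 2. The 1 that rose became 0 without a filter, with library totals, with the sum over transcripts, without the variance trend and at 0.01, and 0 to 1 with 1 library left out. The Trim median of -0.59 was -0.43 without the length trend, -0.31 without length and GC, -0.36 with a pseudocount of 5, -0.27 without a filter, -0.84 with library totals, -0.41 with the block and the length trend removed, and -0.68 to -0.54 with 1 library left out. The cause of these changes was not tested. Scaling to library totals moved the median of all genes to -0.31, with 980 genes higher and 2285 lower, and 12 Trim genes fell, where 21.5% of all genes did. The replicate numbers were not shown to pair the libraries. Each gene's group mean was subtracted, and the remaining deviations of FSC-A High and FSC-A Low libraries were correlated across genes. Same-numbered libraries gave -0.03, 0.06 and 0.00, and libraries of different number gave -0.06 to 0.09. With the replicate block 7 Trim genes fell and 1 rose, at a median of -0.56, where 9.14% of all genes fell and 13.7% rose. The count of 24 Trim genes at 1 or more in all WT HSC libraries was 24 to 30 with 1 library left out. Estimated reads behind single values of tested Trim genes ran as low as 30, for Trim3, and counting error is largest there.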
